A study of Homo sapiens with 9 samples.

Results

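The genes described here are AHR, which encodes the aryl hydrocarbon receptor, its partner ARNT, its repressor AHRR, and 5 genes known as its targets: the cytochrome P450 genes CYP1A1, CYP1A2 and CYP1B1, the ADP-ribosyltransferase TIPARP and the aldehyde dehydrogenase ALDH3A1. They were taken as every probe set, the unit that an Affymetrix array reports, annotated to 1 of these 8 symbols and to no other gene. This gave 8 of 19775 genes and 18 of the 54613 probe sets that were tested: 7 for ARNT, 4 for CYP1B1, 2 for CYP1A2 and 1 each for AHR, AHRR, CYP1A1, TIPARP and ALDH3A1. The cells were HT29, a human line derived from a colon cancer, and expression was measured on HG-U133 Plus 2.0 arrays. There were 3 arrays of cells incubated for 24 h with instant caffeinated coffee at 7 µg/mL (ICC), 3 of cells incubated for 24 h with caffeic acid, a phenolic acid of coffee, at 1.68 µg/mL (CA), and 3 of untreated cells (Control). Both concentrations are described by the labels as not cytotoxic. The labels state neither a vehicle nor an incubation time for the untreated cells. Separate cultures for the replicates are not stated either, so the p-values speak to the spread among these arrays alone. That spread may be technical. In RNA from whole cultures, fewer cells expressing a gene and less RNA of it per cell cannot be told apart.

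The aryl hydrocarbon receptor is a transcription factor that waits in the cytoplasm in a complex with heat shock proteins until it binds a ligand, among them combustion products, plant compounds and tryptophan metabolites. It then enters the nucleus, pairs with ARNT and binds DNA at xenobiotic response elements, which turns on the CYP1 enzymes that oxidise such ligands. AHRR and TIPARP are themselves targets and dampen the receptor, which closes a feedback loop. In the gut the receptor is known for its part in barrier function and in sensing diet and microbial products, and CYP1A2, mainly a liver enzyme, is the main enzyme that breaks down caffeine.

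Promoter windows of 3 of the genes are given as sequence because they hold the core letters of the element that the receptor binds. The sequences are from RefSeq on build GRCh38.p14 and run, on the gene's own strand, from 250 bases before to 50 bases after an annotated start. Capitals mark the core GCGTG of the xenobiotic response element or its reverse complement CACGC. In the CYP1A1 window (chr15:74725479-74725778, minus strand) the core begins at base -57 from the start, in an AHRR window (chr5:322360-322659, plus strand) at -247 and -42, and in a TIPARP window (chr3:156674340-156674639, plus strand) the reverse complement begins at -208 and -142.
CYP1A1: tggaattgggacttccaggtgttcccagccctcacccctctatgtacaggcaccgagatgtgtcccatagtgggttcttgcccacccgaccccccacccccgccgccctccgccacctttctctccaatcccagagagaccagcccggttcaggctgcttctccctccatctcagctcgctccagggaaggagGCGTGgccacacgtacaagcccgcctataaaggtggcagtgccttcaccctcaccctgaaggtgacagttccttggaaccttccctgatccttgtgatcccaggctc
AHRR: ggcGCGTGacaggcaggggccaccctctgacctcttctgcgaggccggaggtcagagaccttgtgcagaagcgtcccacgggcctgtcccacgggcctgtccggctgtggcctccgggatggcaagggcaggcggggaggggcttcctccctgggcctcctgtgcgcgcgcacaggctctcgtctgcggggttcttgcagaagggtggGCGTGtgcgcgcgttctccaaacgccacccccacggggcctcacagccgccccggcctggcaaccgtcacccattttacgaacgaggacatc
TIPARP: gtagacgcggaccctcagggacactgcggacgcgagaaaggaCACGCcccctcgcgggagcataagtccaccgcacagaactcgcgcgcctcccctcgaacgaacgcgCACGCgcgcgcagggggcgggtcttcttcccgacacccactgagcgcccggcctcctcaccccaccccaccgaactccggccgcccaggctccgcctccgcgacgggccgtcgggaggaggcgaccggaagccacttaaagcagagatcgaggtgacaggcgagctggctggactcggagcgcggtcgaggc

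Of the 8 genes, 6 had 1 or more promoter windows in the RefSeq table, and the core lay in 5 of their 9 windows: the AHR and CYP1A1 windows, both AHRR windows and 1 of 3 TIPARP windows. It was not found in the other 2 TIPARP windows or in the ARNT and CYP1A2 windows. Either orientation of these 5 letters occurred in 36.5% of all 35116 windows of this length, so a match describes the sequence and is not a known binding site. CYP1A1 and CYP1A2 are neighbours on chromosome 15, while the other genes lie on chromosomes 1, 2, 3, 5, 7 and 17.

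No probe set of the receptor pathway passed the test in either treatment. With limma's moderated test over all 54613 probe sets, the adjusted p was under 0.05 for 0 of 18 when ICC was set against Control, where 0% of all probe sets passed, 0 of 18 in CA against Control, where 0% passed, and 0 of 18 in ICC against CA, where 0% passed. The fitted log2 differences of the 18 lay between -0.25 and +0.30 in ICC against Control and between -0.24 and +0.40 in CA against Control. Their 95% intervals, which are not adjusted for the number of probe sets, reached at most 1.59-fold above and 1.50-fold below Control in ICC, and at most 1.71-fold above and 1.43-fold below it in CA. A 2-fold difference in signal thus lay outside the interval of each of the 18 probe sets in both treatments. Background compresses array ratios in dim probe sets. For the 4 below the median brightness of the table, this bound is one on the signal more than on the transcript. The same may apply to probe sets not far above that median of 5.49, such as CYP1A1 (mean 6.03) and CYP1A2 207608_x_at (5.88). Some markers of other cell types, which HT29 should lack, read as high, such as PECAM1 (6.12) and COL1A1 (7.24). Of 22 such markers measured, 15 lay below the median.

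**Figure D1:**
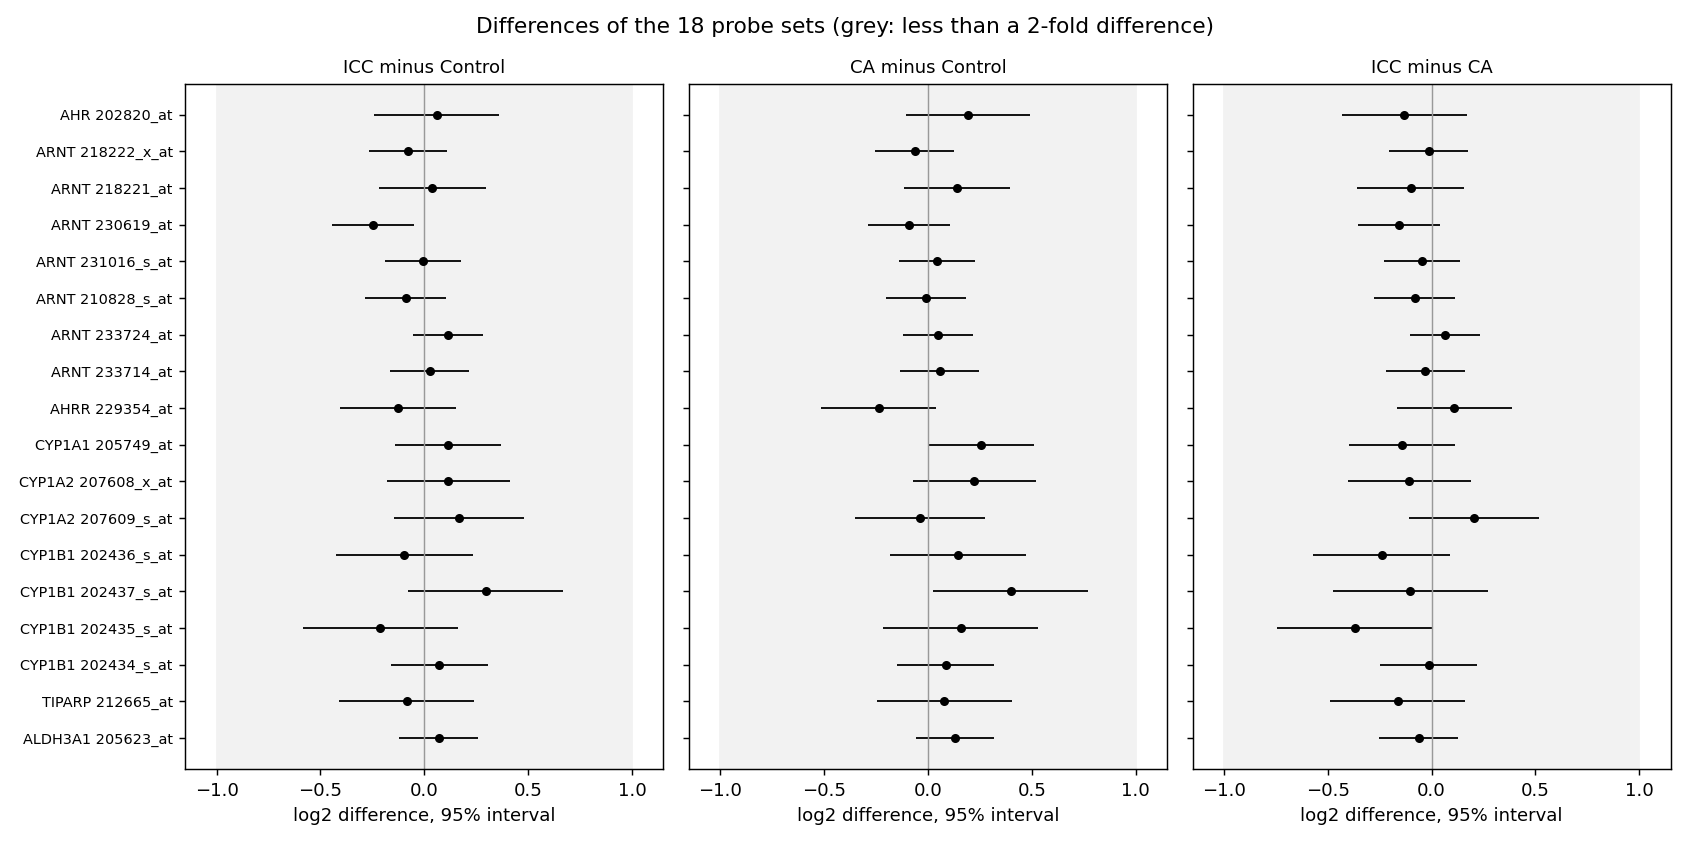
Fitted log2 differences (x axis) of the 18 probe sets (rows) for ICC minus Control, CA minus Control and ICC minus CA, with points for the estimate and bars for its 95% interval from the moderated test over 9 arrays. No bar reaches the edge of the grey band, which marks a 2-fold difference. Against Control, the bars of ARNT 230619_at in ICC (-0.44 to -0.048) and of CYP1B1 202437_s_at in CA (+0.026 to +0.77) do not span 0.

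Counts at looser limits were also close to those of the whole table. At an unadjusted p under 0.05 there was 1 of 18 probe sets in ICC against Control, where 8.23% of all probe sets passed, 1 in CA against Control, where 4.68% passed, and 0 in ICC against CA, where 2.65% passed. The ICC probe set was one of ARNT and lay below Control, and the CA probe set was one of CYP1B1 and lay above it. None of the 18 had all 3 ICC arrays above the 3 Control arrays, and 1 had them all below, where the shares of the table were 7.08% and 4.75%. For CA against Control these counts were 0 and 2, where the shares were 3.79% and 4.06%, and for ICC against CA 0 and 1, where they were 3.78% and 2.11%. ICC and CA are set against the same 3 Control arrays, so the 2 comparisons with Control are not independent.

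Arrays that share a replicate number resembled each other across the table, so the model was also fitted with the replicate number as a block. This again called 0 of the 18 in ICC against Control, where 0.00366% of all probe sets passed, 0 in CA against Control, where 0% passed, and 0 in ICC against CA, where 0% passed. The lowest adjusted p of the 18 with the block was 0.253 in ICC, 0.439 in CA and 0.882 in ICC against CA, and without it 0.553, 0.986 and 1.00. Small unadjusted p-values were more common with the block. In ICC against Control 2 of the 18 were under 0.05, beside 7015 of all 54613 probe sets. For CA against Control these counts were 2 and 4487, and for ICC against CA 1 and 3010.

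**Figure D2:**
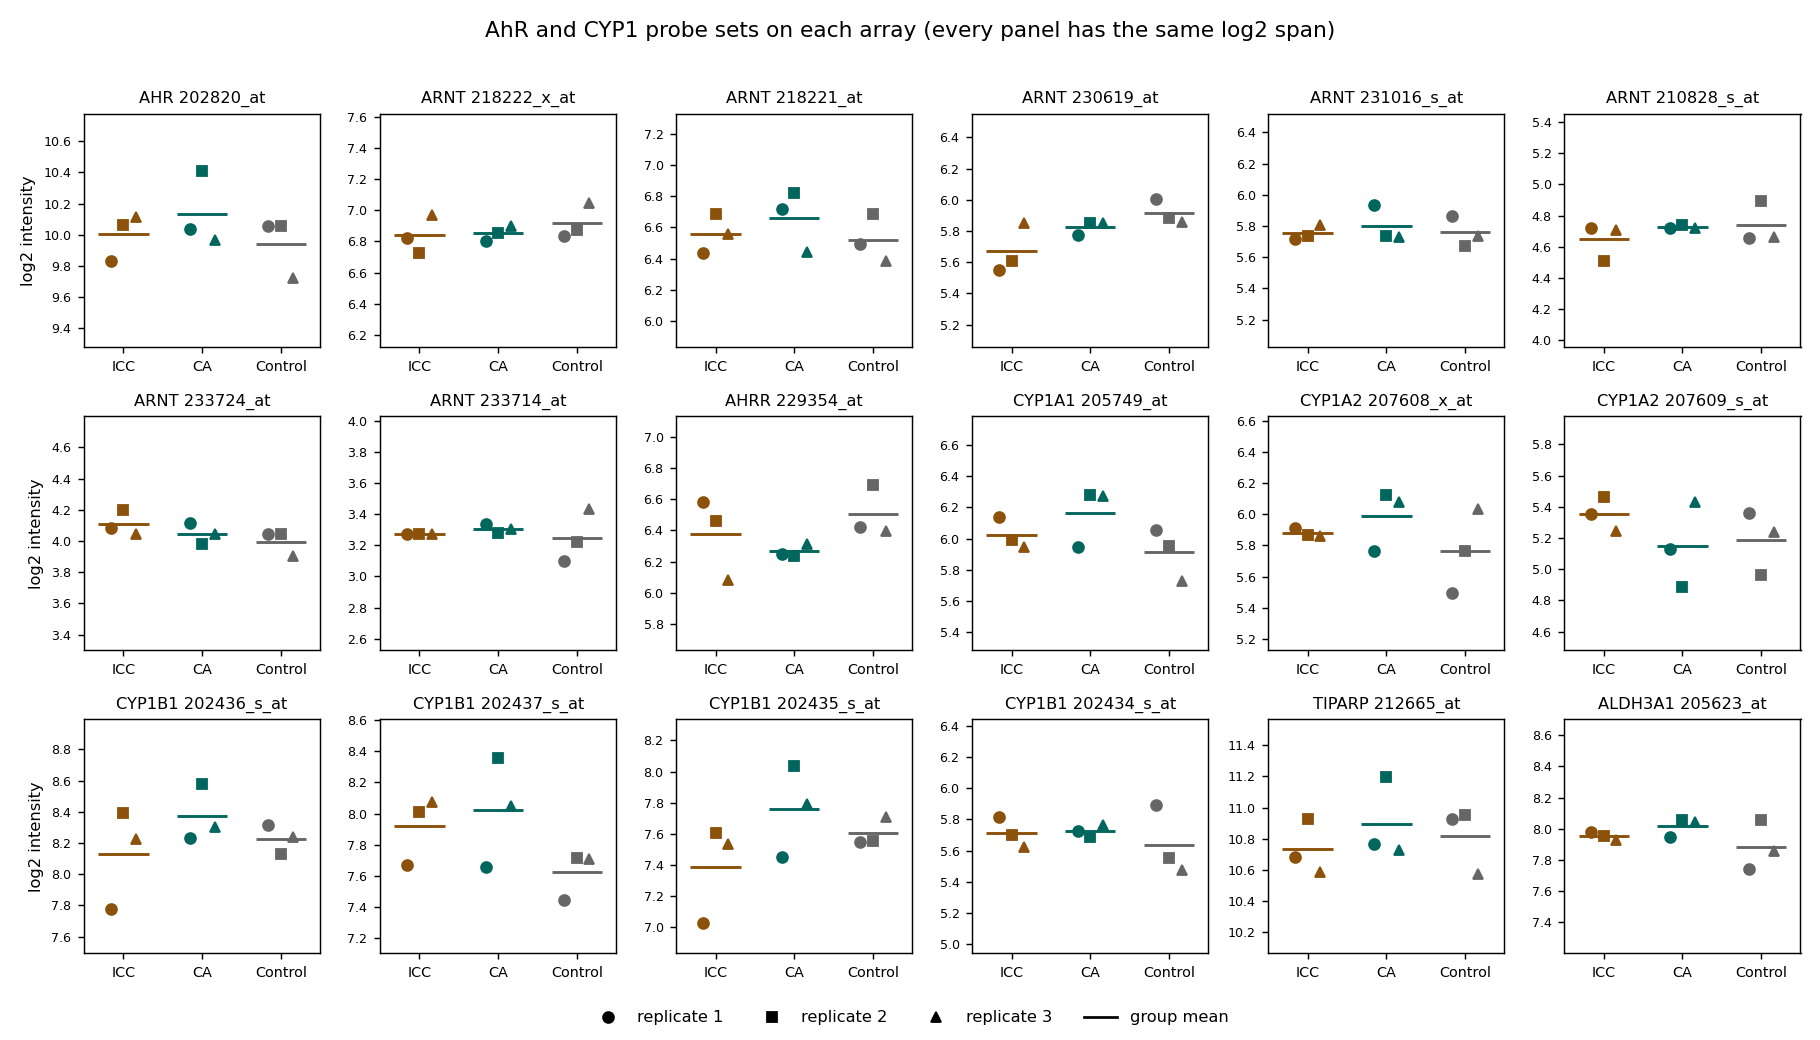
Log2 intensity (y axis) of the 18 probe sets on each of the 9 arrays, by group (ICC, CA, Control), with the marker shape for the replicate number and a bar for the group mean. All panels have the same span, and in all but 3 probe sets (ARNT 230619_at and 233714_at, AHRR) the ICC, CA and Control arrays overlap one another in every pairing of groups.

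AHR itself, the ligand-binding receptor, was among the brighter probe sets, with signal above the upper quartile of the table. Probe set 202820_at had log2 intensities of 9.83, 10.06 and 10.11 in ICC, 10.04, 10.41 and 9.96 in CA, and 10.05, 10.05 and 9.72 in Control. The lowest value was Control replicate 3 and the highest CA replicate 2, and all 3 groups overlapped. The log2 difference was +0.06 ± 0.14 (SE, n = 3 arrays per group, adjusted p 0.927 by limma) for ICC and +0.19 ± 0.14 (adjusted p 0.986) for CA. Without Control replicate 3 the ICC difference was -0.050, and without CA replicate 2 the CA difference was +0.057.

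ARNT, the nuclear partner that the receptor needs to bind DNA and that also serves the hypoxia factors, was covered by 7 probe sets, of which 4 lay between the median and the upper quartile of brightness and 3 below the median. The brightest, 218222_x_at, had 6.82, 6.73 and 6.97 in ICC, 6.81, 6.85 and 6.90 in CA, and 6.83, 6.88 and 7.04 in Control. Its log2 difference was -0.079 ± 0.085 for ICC and -0.064 ± 0.085 for CA, and the groups overlapped. Of the 7 ARNT probe sets only 230619_at had treated arrays on 1 side of Control. It had 5.55, 5.61 and 5.85 in ICC, 5.77, 5.85 and 5.85 in CA, and 6.01, 5.88 and 5.86 in Control. Each treated array thus lay below each Control array, by as little as 0.0055 log2 for the same-numbered replicate 3 arrays. The difference was -0.25 ± 0.089 (1.19-fold lower, unadjusted p 0.0197, adjusted p 0.553) for ICC and -0.089 ± 0.089 (adjusted p 0.991) for CA. CA replicates 2 and 3 and ICC replicate 3 held the same value here. Such ties are common in the deposited values, where 54.0% of all probe sets had 2 or more equal arrays.

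Of the other 6 ARNT probe sets, 3 had estimates below 0 in ICC and 2 in CA. For ICC they lay between -0.090 and +0.11 and for CA between -0.064 and +0.14, and 218221_at, the second brightest, stood at +0.039 ± 0.12 in ICC and +0.14 ± 0.12 in CA. The probe sets 233724_at and 233714_at were below the lower quartile of brightness. In 233714_at the 3 ICC arrays held the same value, 3.27, which lay just below 3.34, 3.28 and 3.30 in CA and within 3.10, 3.22 and 3.43 in Control. That probe set is the 1 whose ICC and CA arrays did not overlap, at a log2 difference of -0.031 ± 0.085.

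AHRR, which competes with the receptor for ARNT and is itself one of its targets, was read by 1 probe set between the median and the upper quartile. Probe set 229354_at had 6.58, 6.46 and 6.08 in ICC, 6.25, 6.23 and 6.31 in CA, and 6.42, 6.69 and 6.39 in Control. All 3 CA arrays lay below all 3 Control arrays, while the ICC arrays spread across both groups. The log2 difference was -0.13 ± 0.13 (adjusted p 0.798) for ICC and -0.24 ± 0.13 (unadjusted p 0.0869, adjusted p 0.986) for CA. CA stood below Control in 3 of 3 same-numbered pairs, by -0.18, -0.45 and -0.083, and the difference was -0.14 without Control replicate 2. The ICC difference turned to +0.018 without ICC replicate 3.

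CYP1A1, the extrahepatic P450 whose transcript is the usual gauge of receptor activation, had signal between the median and the upper quartile of the table. Probe set 205749_at had 6.14, 5.99 and 5.94 in ICC, 5.94, 6.28 and 6.27 in CA, and 6.06, 5.95 and 5.73 in Control. The ICC and Control arrays overlapped. CA replicates 2 and 3 lay above all Control arrays and CA replicate 1 among them. The log2 difference was +0.11 ± 0.11 (1.08-fold, 95% interval -0.14 to +0.37, adjusted p 0.808) for ICC and +0.25 ± 0.11 (1.19-fold, 95% interval -0.00067 to +0.51, unadjusted p 0.0505, adjusted p 0.986) for CA. ICC and CA differed by -0.14 ± 0.11 (adjusted p 1.00), at concentrations that are not matched. Leaving out Control replicate 3 gave +0.16 for CA and +0.019 for ICC, and leaving out CA replicate 1 gave +0.37 for CA. With the replicate block the CA difference had an unadjusted p of 0.0488 and an adjusted p of 0.606.

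CYP1A2, the hepatic member that metabolises caffeine, had 2 probe sets whose suffixes mark probes that can bind more than 1 transcript. The suffixes of all 4 CYP1B1 probe sets and of ARNT 218222_x_at, 231016_s_at and 210828_s_at mark the same. Probe set 207608_x_at had 5.91, 5.87 and 5.86 in ICC, 5.76, 6.12 and 6.08 in CA, and 5.49, 5.77 and 6.03 in Control. Probe set 207609_s_at, below the median brightness, had 5.35, 5.46 and 5.25 in ICC, 5.13, 4.88 and 5.43 in CA, and 5.36, 4.96 and 5.24 in Control. Both estimates were above 0 in ICC, and they differed in sign in CA. The first stood at +0.12 ± 0.13 in ICC and +0.22 ± 0.13 in CA, the second at +0.17 ± 0.14 in ICC and -0.038 ± 0.14 in CA, and none passed (adjusted p 0.764 to 0.999). Single arrays set the sign of the first in ICC, -0.019 without Control replicate 1, and of the second in CA, +0.094 without CA replicate 2. The first in CA (+0.088 to +0.36) and the second in ICC (+0.054 to +0.25) kept their sign in every alternative that gave a value.

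CYP1B1, the P450 that oxidises oestradiol and polycyclic hydrocarbons and is found in many tumours, gave the widest spread of the 8 genes. Probe set 202437_s_at had 7.67, 8.01 and 8.08 in ICC, 7.66, 8.36 and 8.05 in CA, and 7.45, 7.72 and 7.71 in Control. In both treatments replicates 2 and 3 lay above all Control arrays and replicate 1 did not. Its log2 difference was +0.30 ± 0.17 (1.23-fold, unadjusted p 0.108, adjusted p 0.654) for ICC and +0.40 ± 0.17 (1.32-fold, 95% interval +0.026 to +0.77, unadjusted p 0.0383, adjusted p 0.986) for CA. Both were positive in 3 of 3 same-numbered pairs, at +0.22, +0.30 and +0.37 for ICC and +0.21, +0.64 and +0.34 for CA. The CA difference was +0.23 without CA replicate 2 and +0.58 without CA replicate 1. With the replicate block the SE was 0.091 for each, with an unadjusted p of 0.00831 (adjusted p 0.253) for ICC and 0.00125 (adjusted p 0.439) for CA.

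The other CYP1B1 probe sets did not repeat this in ICC. The brightest, 202436_s_at, had 7.77, 8.39 and 8.22 in ICC, 8.23, 8.58 and 8.30 in CA, and 8.31, 8.13 and 8.24 in Control. Probe set 202435_s_at had 7.03, 7.61 and 7.53 in ICC, 7.45, 8.04 and 7.79 in CA, and 7.55, 7.55 and 7.71 in Control. ICC replicate 1 was the lowest array in both and CA replicate 2 the highest in both and in 202437_s_at. Against Control, 202436_s_at stood at -0.096 ± 0.15 in ICC and +0.14 ± 0.15 in CA, and 202435_s_at at -0.21 ± 0.17 in ICC and +0.16 ± 0.17 in CA. Without ICC replicate 1 the ICC values of these probe sets were +0.082 and -0.033. The fourth, 202434_s_at, with 5.82, 5.70 and 5.62 in ICC, 5.72, 5.69 and 5.76 in CA, and 5.89, 5.55 and 5.48 in Control, stood at +0.073 ± 0.11 and +0.086 ± 0.11. All 4 probe sets thus had a positive estimate in CA and 2 of 4 in ICC, and 1 of these 8 estimates had an unadjusted p under 0.05.

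Between the treatments, all 4 CYP1B1 estimates were below 0 for ICC against CA, at concentrations that differ. The difference was largest in 202435_s_at, at -0.37 ± 0.17 (1.29-fold lower in ICC, unadjusted p 0.0521, adjusted p 1.00) and in 3 of 3 same-numbered pairs, at -0.42, -0.43 and -0.26. With the replicate block its unadjusted p was 0.00645 and its adjusted p 0.882, and without ICC replicate 1 the difference was -0.19. For 202436_s_at the difference was -0.24, and ICC was lower in 3 of 3 pairs. For 202437_s_at and 202434_s_at it was -0.10 and -0.013, ICC was higher in 2 of 3 pairs, and the estimates turned to +0.063 without CA replicate 2 and to +0.031 without ICC replicate 3.

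**Figure D3:**
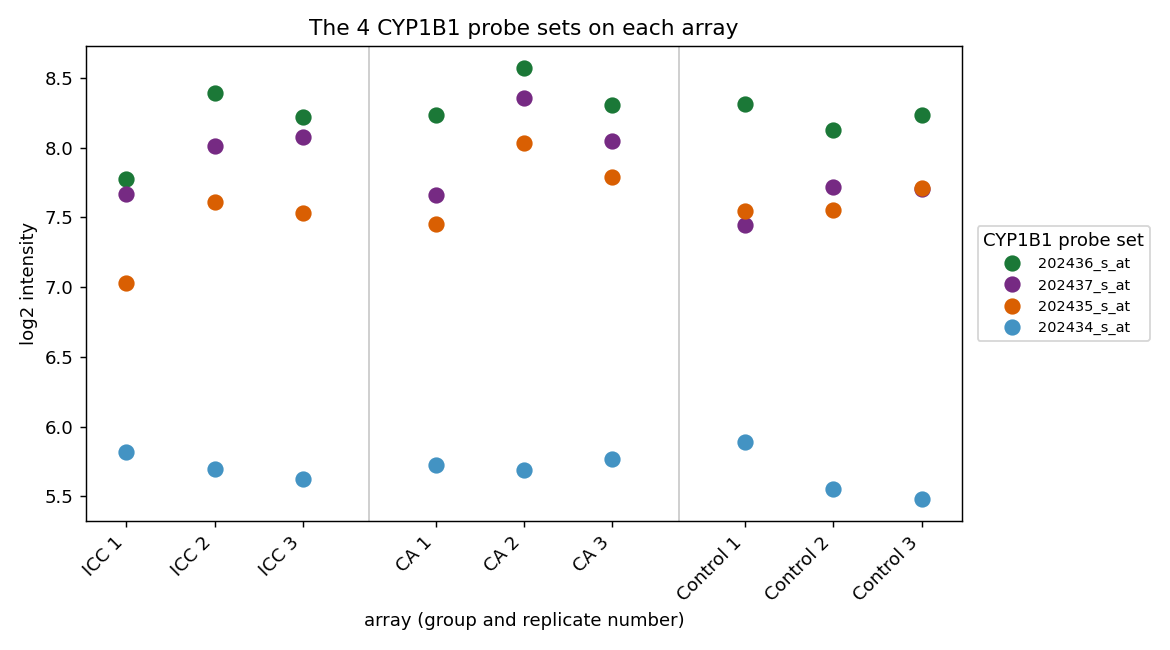
Log2 intensity (y axis) of the 4 CYP1B1 probe sets (colours) on the 9 arrays (x axis, by group and replicate number). The 202435_s_at, 202436_s_at and 202437_s_at points are at their highest on CA replicate 2, at 8.04, 8.58 and 8.36, while 202434_s_at lies between 5.48 and 5.89 on all arrays.

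TIPARP, the ADP-ribosyltransferase that modifies and restrains the receptor, was read by a probe set above the upper quartile of brightness. Probe set 212665_at had 10.68, 10.93 and 10.59 in ICC, 10.77, 11.19 and 10.73 in CA, and 10.93, 10.95 and 10.58 in Control. The replicate 2 array was the highest in each group, which was also so for ARNT 218221_at and for 4.54% of all probe sets. The log2 difference was -0.085 ± 0.15 (adjusted p 0.899) for ICC and +0.079 ± 0.15 (adjusted p 0.998) for CA. The CA estimate turned to -0.068 without CA replicate 2 and to -0.041 without Control replicate 3.

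ALDH3A1, which clears aldehydes and responds to the receptor in other tissues, was also above the upper quartile. Probe set 205623_at had 7.98, 7.95 and 7.93 in ICC, 7.95, 8.06 and 8.04 in CA, and 7.74, 8.06 and 7.86 in Control. All 6 treated arrays lay within the range of the Control arrays, from 7.74 to 8.06. The log2 difference was +0.069 ± 0.086 (adjusted p 0.847) for ICC and +0.13 ± 0.086 (adjusted p 0.986) for CA. Without Control replicate 1 these were -0.0028 and +0.058, and without Control replicate 2 they were +0.16 and +0.22.

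Over the 18 probe sets the median log2 difference was +0.033 with 10 above 0 in ICC against Control, where the median of all probe sets was +0.014 and 54.9% lay above 0. In CA against Control the median was +0.083 with 13 above 0, where the median of all was -0.0047 and 48.0% lay above 0. In ICC against CA it was -0.091 with 15 below 0 and 3 above, where the median of all was +0.018 and 57.7% lay above 0. Several of these probe sets read the same transcript and are not separate measurements. The array CA replicate 2 was the highest of the 9 in 8 of the 18 probe sets and in 9.92% of the table, and Control replicate 3 was the lowest in 6 of the 18 and in 12.7% of the table. ICC replicate 1 was the highest in 0 of the 18, against 22.8% of the table. The part of CA replicate 2 and Control replicate 3 in the positive CA median was not tested. Values without 1 of them are given above for some of the probe sets only.

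Genes around the receptor were described from lists of its cofactors, ARNT partners, further target genes, ligand-forming enzymes and other P450 genes, each gene by its brightest probe set. Of all 19775 genes, 7.52% had an unadjusted p under 0.05 in ICC against Control and 4.38% in CA against Control, and none passed after adjustment over all probe sets. In each of the 5 lists, 0 genes passed in either comparison. Apart from NQO1 and HSP90AB1, the genes named from them had the smallest p-values of their list, so non-overlapping arrays partly follow from that choice. Of all probe sets, 7.08% had all ICC arrays above Control and 4.75% all below, and for CA these shares were 3.79% and 4.06%. Among 10 measured cofactors, where HSP90 proteins hold the inactive receptor and coactivators such as EP300 help it to act, the median was +0.049 in ICC and +0.086 in CA. EP300 had means of 7.85 in ICC and 7.58 in Control (+0.27 ± 0.14, adjusted p 0.635). RB1, the retinoblastoma protein, had means of 9.89 in CA and 9.70 in Control (+0.18 ± 0.077, adjusted p 0.986), with all CA arrays above Control. The corepressor NRIP1 stood at +0.17 ± 0.088 in ICC, with all ICC arrays above Control, and at +0.18 ± 0.088 in CA. RB1 stood at +0.093 ± 0.077 in ICC, and the coactivator NCOA1 at +0.13 ± 0.086 in CA. HSP90AB1, with small differences of -0.032 ± 0.060 in ICC and -0.068 ± 0.060 in CA, had all arrays of both treatments below Control.

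Of the 10 ARNT partners and relatives of the same bHLH-PAS family, the median was +0.014 in ICC and -0.014 in CA. The neural factor SIM1 stood at +0.19 ± 0.069 in ICC (adjusted p 0.555) and +0.13 ± 0.069 in CA at a signal below the median brightness. All ICC and CA arrays of SIM1 lay above Control. The ARNT paralogue ARNT2 stood at -0.17 ± 0.086 in ICC and -0.097 ± 0.086 in CA. Of the clock factors, CLOCK stood at +0.15 ± 0.10 in ICC and NPAS2 at -0.12 ± 0.10 in CA.

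Further genes known to respond to the receptor had a median of +0.031 in ICC and -0.051 in CA over 14 measured genes. Of these, UGT1A6, a glucuronidating enzyme, had means of 7.44 in ICC, 7.50 in CA and 7.71 in Control. Its ICC and CA arrays all lay below the Control arrays, at -0.26 ± 0.081 (unadjusted p 0.00845, adjusted p 0.514) and -0.21 ± 0.081 (adjusted p 0.986), and UGT1A genes share exons, so its probes may read more than 1 of them. The scavenger receptor CD36 stood in the opposite direction at a signal below the lower quartile, with all ICC and CA arrays above Control. It stood at +0.24 ± 0.080 in ICC (unadjusted p 0.0128, adjusted p 0.548) and +0.26 ± 0.080 in CA (unadjusted p 0.00866, adjusted p 0.986). The growth factor gene EREG stood at +0.30 ± 0.25 in ICC and NFE2L2, the antioxidant regulator NRF2, at +0.21 ± 0.18 in CA. NQO1, the quinone reductase that both regulators control, was bright and had means of 12.11 in ICC, 12.18 in CA and 12.07 in Control.

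The 8 genes of tryptophan breakdown, whose products include receptor ligands, had medians of -0.030 in ICC and -0.028 in CA. Kynureninase, KYNU, stood at -0.22 ± 0.077 in CA (adjusted p 0.986) with all CA arrays below Control, and at -0.091 ± 0.077 in ICC. The dioxygenase HAAO stood at +0.11 ± 0.11 in ICC, the monooxygenase KMO at +0.095 ± 0.12 in ICC and +0.17 ± 0.12 in CA, and TDO2, which opens the tryptophan ring, at +0.18 ± 0.12 in CA at a signal below the lower quartile. Over 15 other P450 genes and their regulators the medians were +0.055 in ICC and -0.034 in CA. CYP2W1, a P450 of fetal gut and colon tumours, stood at +0.26 ± 0.083 in ICC (adjusted p 0.541) with all ICC arrays above Control, and CYP3A4 at +0.086 ± 0.083 in ICC and +0.14 ± 0.083 in CA. CYP2B6 stood at +0.10 ± 0.086 in ICC, and CYP2E1 and CYP4F3 both at -0.18 ± 0.11 in CA, each at a signal below the median. All CA arrays of CYP2E1 lay below Control.

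**Figure D4:**
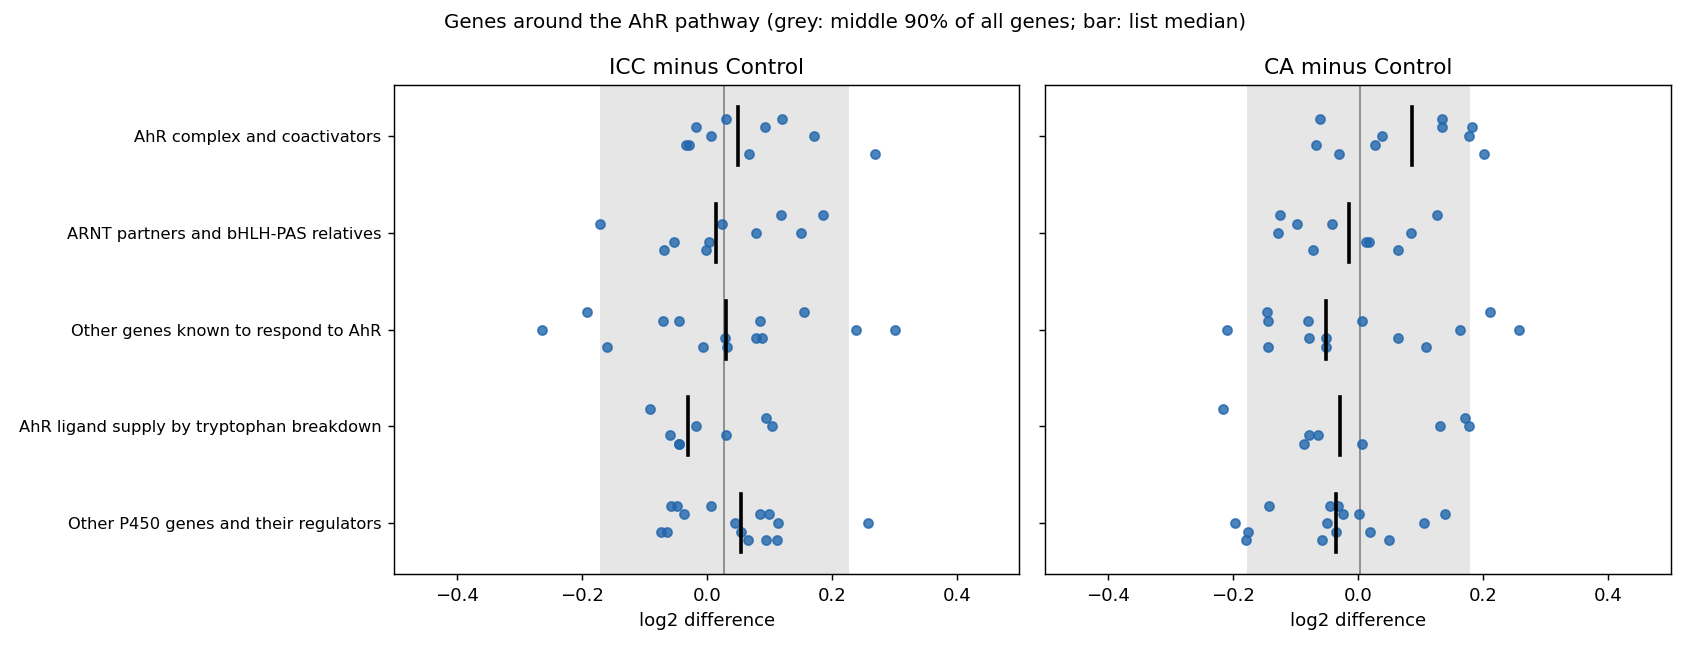
Log2 difference (x axis) of each measured gene (point) of 5 lists around the receptor (rows) in ICC minus Control and CA minus Control, with a bar for each list's median. The grey band is the middle 90% of single genes among all 19775, and the thin line is the median of all genes, +0.028 in ICC and +0.0027 in CA. List medians lie between -0.030 and +0.055 in ICC and between -0.051 and +0.086 in CA.

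Patterns across the 9 arrays were compared by Pearson correlation over all 19775 genes, as a description. The genes most like AHR were SNHG10 (r 0.991, over a range of only 0.14 log2), ZC3H6 (0.949), BICD1 (0.948), FOXD3-AS1 (0.947) and RRM2B (0.938). Those most like CYP1A1 were FNDC5 (0.964), RAB40AL (0.942), MYBPH (0.938), LUARIS (0.935) and ZNF446 (0.917). Among the 8 genes, the one nearest to AHR was TIPARP, at r 0.782 and rank 200, followed by CYP1B1 at 0.662, and the one nearest to CYP1A1 was AHR, at 0.526 and rank 1506. Others went the opposite way. ARNT stood at -0.346 with AHR and -0.402 with CYP1A1, and AHRR at -0.388 and -0.0971. CYP1A2 was near 0 with AHR, at 0.032. With 9 arrays and 19775 genes, correlations of this size occur in some genes whatever their function.

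The label of a colon epithelial line was set against marker genes. Of 11 colon epithelium markers, 7 lay above the upper quartile of brightness, among them EPCAM, CDH1, VIL1 and KRT20, while CDH17 lay below the lower quartile and GPA33 below the median. Of 22 measured markers of hepatocytes, fibroblasts, endothelium, leukocytes, muscle and neural cells, 0 lay above the upper quartile and 15 below the median. The median intensity of an array was between 43.8 and 46.6, and precision is limited by having 3 arrays in a group.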

How the data were processed

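Biotin-labelled total RNA of 9 HT29 samples was measured on Affymetrix arrays, per the labels. RMA is named by the submitters' processing notes as what the authors used for their deposited intensities, which are linear intensity values by their range; no version of it is stated. Each array's group and number are as labelled. Log2 was taken here, 62 control probe sets were left out, and probe sets were named from the platform annotation, with 41091 of 54613 annotated to 1 gene.

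The 3 groups were fitted in 1 limma 3.58.1 model (R 4.3.3) over all 54613 probe sets, with Benjamini-Hochberg adjustment and a threshold of 0.05. The model was run on simulated data with known changes and independent arrays, a setting without the likeness of same-numbered arrays given below. An exact permutation test of 3 against 3 arrays cannot give a p under 0.1. After group means were taken away, same-numbered arrays of different groups correlated at 0.271 to 0.478 in 9 of 9 pairs, so the replicate block was fitted too. The other pairs correlated at -0.407 to 0.0770. Taking away group means pushes them down when same-numbered pairs are positive, so their range adds no separate support. Alternatives were normalization, dim and cross-hybridizing probe sets, 1 value per gene, array weights, and leaving out arrays or the third group. All 18 probe sets are given. Of each list around the receptor, the genes with the 3 smallest p-values in each comparison with Control are named, as are the 5 genes most correlated with AHR and with CYP1A1. NQO1 and HSP90AB1 were added after their values were seen. Members and lists were chosen with earlier results of these data known. Some genes of the lists are not reported here. Figures were drawn with matplotlib 3.10.9.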

Additional observations from a re-analysis of the deposited data

How the results depend on the processing

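No probe set of the 8 genes passed an adjusted p under 0.05 in any of the 3 comparisons under any of the 18 alternatives that gave it a value, among which the lowest adjusted p was 0.253 in ICC against Control, 0.439 in CA against Control and 0.882 in ICC against CA, each with the replicate block. Over all probe sets the count of calls stayed at 0 in every alternative except the replicate block, which gave 2 in ICC against Control, neither of them in these genes. Of 291 recomputed log2 differences per comparison, 15 changed sign in ICC against Control, 9 in CA against Control and 9 in ICC against CA. All of these came from main values of at most 0.13 in size. Many of the 291 could not change, since the replicate block, filters of probe sets and leaving out an array of the third group keep an estimate. The counts thus overstate how far the signs were tried. No recomputed difference moved by more than the spread between replicates, and 9, 12 and 12 of the 18 probe sets kept 1 sign throughout. Against Control, CYP1A1 was positive for both treatments in all 18 alternatives, several of which return the main value by construction. It stood at +0.019 to +0.18 in ICC and at +0.16 to +0.37 in CA. With the same limit, CYP1B1 202437_s_at was positive in the 15 that gave it a value. It stood at +0.21 to +0.42 in ICC and at +0.23 to +0.58 in CA. With 1 value per gene, CYP1B1 stood at -0.096 (brightest probe set) and +0.015 (mean) in ICC, and at +0.14 and +0.20 in CA. The number of arrays limits what can be seen: SEs of the 18 lay between 0.076 and 0.17 log2, and dim probe sets understate changes.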
